A study of Mus musculus with 5 samples.

Results

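The neighbourhoods described here are those of mouse genes with the most RXRα peaks of alveolar macrophages (AMs) nearest to them, and are called dense here for that number and not for peaks per length. Peaks of the WT A and WT G lists that overlapped by at least 1 bp were merged, regions holding a peak of both lists were kept, and each region was assigned to the protein-coding gene whose transcription start site (TSS) was nearest to its midpoint. Genes with 5 or more regions were taken, with all of their regions. This gave 88 of the 1934 genes with a region (4.55%) and 606 of the 3423 regions (17.7%). These counts depend on how peaks were joined: there were 7 such genes with 44 regions where WT peaks had to share 50% of both lengths, 193 genes with the WT A list alone and 533 with the WT G list alone. The members were therefore selected on peak positions in the WT lists, and their number and their presence in both WT lists are a description and not a finding.

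The assay was HT-ChIPmentation with an anti-RXRα antibody, in which immunoprecipitated chromatin is tagged for sequencing by the Tn5 transposase while still on the beads. AMs from bronchoalveolar lavage were sorted by flow cytometry from mice that all carried floxed Rxra and Rxrb alleles: 2 libraries were CD11cCre- Rxrabfl/fl (WT A and WT G), 2 were CD11cCre+ Rxrabfl/fl (KO A and KO G), and 1 input sample of the WT genotype was the control for peak calling. Cre is driven by Cd11c regulatory sequence, which is active in AMs and also in dendritic cells. Mice of both genotypes were 9 weeks old and of C57BL/6J background. Nothing in the labels says whether the libraries of a genotype came from separate animals or pools.

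RXRs are nuclear receptors that bind DNA as dimers with each other or with partners such as PPARγ, LXR and RAR, which sense fatty acids, oxysterols and retinoic acid. The dimers bind direct repeats (DR) of a hexamer close to AGGTCA, and the number of bases between the repeats differs between partners: DR1 is bound by PPAR-RXR dimers and RXR homodimers, DR4 by LXR-RXR and DR5 by RAR-RXR. In AMs, which clear surfactant lipids from the airspace, PPARγ and its RXR partner are known regulators of lipid handling. Peaks of a receptor often lie far from promoters, and several around the same gene are common at genes with complex regulation.

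There were 4751 and 9766 peaks in the WT lists and 83 and 208 in the KO lists, A before G. The summit of a typical peak held few fragments: the medians were 16 and 8 for WT and 14 and 12 for KO, and the weakest peaks rested on 10 and 5 and on 10 and 8. A region without a KO peak is thus a region where no peak was detectable at this depth. Peaks measure neither expression nor the floxed exons, so cell identity and the deletion were not checked here. The value given for a region is the −log10 of the q-value (a p-value corrected for multiple testing) of its strongest peak in a list, so that higher values are stronger. WT values are given for A and then for G, and KO values with the name of their list.

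Sequences were read at the summit of the strongest peak of each region, over 50 bp on each side (101 bp in all), and searched on both strands for AGGTCA, 1 base and AGGTCA again, with at most 2 mismatches in the hexamers (DR1). Of the 606 regions, 31 held a DR1 match (5.12%, 95% exact binomial interval 3.50 to 7.18), against 6.34% of all 3423 regions (interval 5.55 to 7.21). None of the 31 was perfect, 4 had 1 mismatch and 27 had 2. The matches were spread over 29 genes, and Nceh1 and Nt5c2 were the only genes of the 88 with 2 such regions. The windows below are from the GRCm38.p6 (mm10) genome of RefSeq, plus strand, 5′ to 3′, and the capitals mark 1 direct repeat in each, the one with the fewest mismatches or, where matches tie, one of them. Cebpb region 7 and Trim25 region 6 are shown because they were, of the 5 members with the highest ranks in WT, the ones that held a DR1 match, the next 4 because they hold the members' only matches with 1 mismatch, the Nceh1 windows because that gene had a pair of them, and Dhrs3 region 2 for its DR5 match with 1 mismatch near a gene of retinoid metabolism. Such DR5 matches were also found in Bhlhe40 region 5 and Il1a region 1, which are not shown. The other 3 of those 5, Tgm2 region 6, Dhrs3 region 8 and Pim1 region 3, had no DR1 match in their windows. Regions are numbered along the chromosome within each gene.
Cebpb region 7 (chr2:167724049-167724149): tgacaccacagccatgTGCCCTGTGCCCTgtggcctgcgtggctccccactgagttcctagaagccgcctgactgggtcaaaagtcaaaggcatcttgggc
Trim25 region 6 (chr11:89024377-89024477): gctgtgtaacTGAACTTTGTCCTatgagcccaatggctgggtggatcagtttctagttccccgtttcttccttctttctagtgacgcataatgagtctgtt
Cd9 region 4 (chr6:125484780-125484880): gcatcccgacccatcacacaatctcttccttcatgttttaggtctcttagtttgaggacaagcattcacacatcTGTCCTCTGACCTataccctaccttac
Tcf7l2 region 2 (chr19:55660174-55660274): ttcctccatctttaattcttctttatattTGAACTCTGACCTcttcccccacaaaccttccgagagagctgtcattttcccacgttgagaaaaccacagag
Trps1 region 1 (chr15:50664766-50664866): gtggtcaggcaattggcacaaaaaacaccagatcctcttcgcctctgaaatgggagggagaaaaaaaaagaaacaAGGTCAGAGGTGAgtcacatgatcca
Bhlhe40 region 6 (chr6:108570831-108570931): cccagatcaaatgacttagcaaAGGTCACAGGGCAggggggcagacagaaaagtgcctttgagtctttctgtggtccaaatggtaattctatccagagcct
Nceh1 region 1 (chr3:27192372-27192472): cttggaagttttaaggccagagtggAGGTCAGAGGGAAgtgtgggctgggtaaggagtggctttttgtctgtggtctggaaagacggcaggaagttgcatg
Nceh1 region 2 (chr3:27198696-27198796): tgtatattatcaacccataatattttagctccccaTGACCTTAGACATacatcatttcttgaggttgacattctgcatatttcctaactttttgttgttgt
Dhrs3 region 2 (chr4:144898372-144898472): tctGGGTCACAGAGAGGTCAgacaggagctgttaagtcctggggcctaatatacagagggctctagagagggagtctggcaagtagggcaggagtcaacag

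Read on its own strand, the match was AGGTCAGAGGACA in Cd9 region 4 and AGGTCAGAGTTCA in Tcf7l2 region 2, both on the minus strand, and AGGTCAGAGGTGA in Trps1 region 1 and AGGTCACAGGGCA in Bhlhe40 region 6, both on the plus strand. Cebpb region 7 held AGGGCACAGGGCA on the minus strand, 1 of 3 matches in its window, of which the capitals mark only this one, and Trim25 region 6 held AGGACAAAGTTCA, also on the minus strand. The DR5 match of Dhrs3 region 2 was GGGTCACAGAGAGGTCA on the plus strand, in a region with WT values of 5.50 and 8.04. A match is a string of letters in a window and was not tested for binding.

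Nceh1, which hydrolyses cholesterol esters in macrophages, had all 7 regions in its introns and no KO peak, and its regions 1 and 2 had WT values of 9.92 and 11.8 and of 20.7 and 9.26. Nt5c2, a nucleotidase gene, held its matches in region 2 (WT values of 10.2 and 11.8) and region 3 (19.4 and 24.8). Cd9, which encodes a tetraspanin of the cell surface, had 23.3 and 12.2 at region 4, and none of the Nt5c2 or Cd9 regions had a KO peak.

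The other spacings were rarer. DR2 was found in 1.82% of the 606 windows, DR3 in 1.49%, DR4 in 1.98% and DR5 in 2.15%, against 2.54%, 2.02%, 1.90% and 2.57% of all regions. A match to any of the spacings from 1 to 5 bases was found in 68 windows (11.2%), against 13.4% of all regions. In windows of the same length centred 500 bp to each side of the members' summits, 1.98% held DR1. In these flanks 1.73% held DR2, 1.24% DR3, 1.16% DR4 and 0.908% DR5. Of the flanks of all regions, 1.55% held DR1. The DR1 pattern with its hexamer letters reordered (GATCAG in place of AGGTCA) was found in 1.16% of the members' summit windows and in 1.16% of their flanks. The DR1 share of the members lay above that of their flanks, and its interval overlapped that of regions at genes with 2 to 4 regions (6.62%, interval 5.45 to 7.95). Members with a DR1 match had median WT values of 11.3 and 10.5, and the other members 8.06 and 8.04.

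Sites of other macrophage factors were searched without mismatches in the same windows. The C/EBP pattern TTGCNNAA was found in 67 member windows (11.1%, interval 8.67 to 13.8) against 10.96% of all regions and 4.46% of the members' flanks. The AP-1 pattern TGANTCA was found in 8.25% (interval 6.19 to 10.7) against 7.51%, the RUNX pattern TGTGGTT in 6.27% (interval 4.48 to 8.51) against 5.93%, and the PU.1 pattern GAGGAAGT in 3.96% (interval 2.55 to 5.84) against 4.38%. In the members' flanks the AP-1, RUNX and PU.1 shares were 3.38%, 2.72% and 0.825%. The E-box CACGTG was found in 5 member windows (0.825%) against 1.81% of all regions and 1.24% of the members' flanks. For the E-box the members' interval was 0.268 to 1.92. It did not reach the 2.22% found at genes with 1 region (interval 1.47 to 3.22), though the intervals overlapped. In each of these 5 searches and in that for DR1, the value over all regions lay within the members' interval. All regions include the members. No difference between the members and all regions was detectable at this number of regions.

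Most genes with a region had only 1. There were 1215 genes with 1 region, 380 with 2, 162 with 3 and 89 with 4. Of the 88 dense neighbourhoods, 24 had 5 regions, 23 had 6, 22 had 7 and 19 had 8 or more, and the 8 genes with 10 or more held 103 regions together. At the threshold, Eepd1, Nfil3 and Syk were the genes with 5 regions and the highest summed values over both WT lists, and Rbpms, Lmo4 and Ric1 were their counterparts with 4, just outside. The regions of Eepd1 spanned 66.8 kb, those of Nfil3 42.7 kb and those of Syk 64.7 kb. Those of Rbpms spanned 115.1 kb, those of Lmo4 161.7 kb and those of Ric1 15.8 kb.

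**Figure D1:**
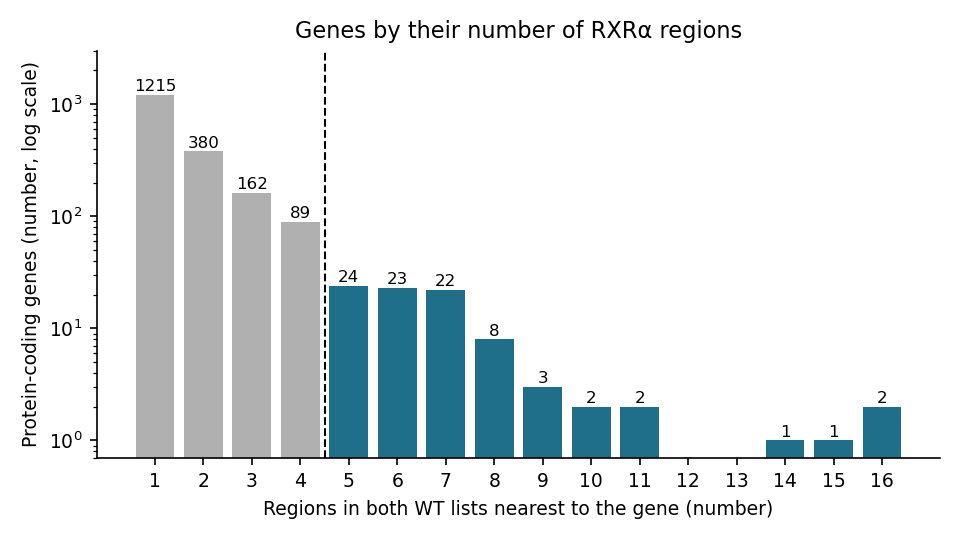
Number of protein-coding genes (vertical axis, log scale) by the number of regions in both WT lists nearest to them (horizontal axis). The dashed line marks the threshold of 5 regions, with 89 genes at 4 and 24 at 5, and Klf6 and Trib1 stand at 16.

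The genes with the most regions had different functions. Klf6, a zinc finger factor of the Krüppel-like family, and Trib1, a pseudokinase that targets C/EBPα for degradation, had 16 regions each. Cebpb, which encodes the C/EBPβ factor of macrophages, had 15, and Zfp608, a zinc finger protein gene, had 14. They were followed by Dhrs3, a retinaldehyde reductase that limits retinoic acid formation, and Tomm20, a receptor of mitochondrial protein import, with 11 each, by the scaffold gene Iqgap1 and the Wnt effector Tcf7l2 with 10 each, and by Nedd9, Rin2 and Dusp1 with 9. Nedd9 encodes a scaffold of adhesion signalling, Rin2 an activator of the endosomal GTPase Rab5 and Dusp1 a phosphatase that switches off MAP kinases. Among genes with 8 regions, Sgms1, which makes sphingomyelin, had the highest summed value.

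The neighbourhoods with the most regions were built in different ways. The 16 Klf6 regions ran from 349.5 kb upstream of its TSS to 27.4 kb downstream, and 7 of them lay inside the gene itself, the farthest of these 8.58 kb from the TSS. At Klf6 the median gap between neighbouring regions was 0.649 kb, and counted as blocks, with regions under 5 kb apart taken as 1, there were 6. The strongest, Klf6 region 14 at 14.3 kb downstream, had WT values of 23.3 and 21.8, against 3.16 in KO G and no peak in KO A.

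Trib1 regions were set apart by a median gap of 19.2 kb and gave 12 blocks, the highest number among the 88 genes. Downstream of Trib1, 11 regions lay in intergenic sequence between 30.6 kb and 180.2 kb from the TSS, and 4 lay upstream within introns of the neighbouring gene Nsmce2. The remaining one lay in an exon of Trib1. Trib1 region 10 had WT values of 25.9 and 11.8, and Trib1 region 11 had 20.3 and 16.8. None of the 16 Trib1 regions had a peak in KO A or KO G, where 5.87% of all shared regions had one in either.

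Of the 15 Cebpb regions, 14 lay downstream of the TSS, up to 87.7 kb away, in a span of 90.7 kb. The gene has a single exon, and 5 of the regions lay within the lincRNA A530013C23Rik that follows it. Cebpb region 1, at 0.852 kb upstream, had WT values of 10.2 and 14.5 and no KO peak. Cebpb region 7 (chr2:167723521-167724593), at 35.1 kb downstream, had WT values of 48.5 and 36.4, with 18.9 in KO A and 29.3 in KO G, so all 4 libraries had a peak there and both KO values were under both WT values. Cebpb region 8 also had a peak in every library, with WT values of 24.6 and 9.26, 7.30 in KO A and 6.31 in KO G. Cebpb region 14 was the third with a KO peak (3.16 in KO G).

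At Dhrs3, 5 of the 11 regions lay in the gene, 3 in the neighbouring gene Vps13d, and the farthest was 126.2 kb away. Dhrs3 region 8 (chr4:144960361-144962258), at 68.2 kb downstream in intergenic sequence, had WT values of 51.5 and 38.02, with 13.5 in KO A and 9.89 in KO G. It was second by rank in WT A and eighth in WT G among the 3423 regions. The promoter region of Dhrs3, 0.105 kb upstream of the TSS, had WT values of 8.06 and 9.26 and no KO peak.

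All 11 Tomm20 regions lay downstream, between 16.1 kb and 138.3 kb from its TSS and outside the gene, 8 of them within the lincRNA Gm31718 (3 of these also within A630001O12Rik). The next protein-coding gene, Irf2bp2, was dense as well with 7 regions, so that the pair shared 18 regions over 379 kb of chromosome 8. Fam107b and Frmd4a on chromosome 2 were the other pair of adjoining dense genes, with 5 regions each. Assignment to the nearest TSS splits such stretches between genes, and which gene a distant region acts on was not measured.

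Iqgap1 had 8 of its 10 regions in its own introns and the other 2 upstream, up to 28.1 kb away. Iqgap1 region 5 had WT values of 18.2 and 29.7. No Iqgap1 region had a KO peak. At Tcf7l2 all 10 regions were intronic, 7 of them in the gene itself, and again there was no KO peak. Nedd9 had all 9 regions in the gene, and Nedd9 region 3 had a peak in every library, with WT values of 15.8 and 18.8, 6.15 in KO A and 9.89 in KO G.

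Zfp608 combined both layouts. Of its 14 regions, 7 lay in the gene, 4 lay together beyond its 3′ end at up to 143.5 kb, and 2 lay far upstream, the farthest at 419.2 kb. Zfp608 region 6 had WT values of 24.6 and 23.3 and no KO peak, and the region 0.697 kb downstream of the TSS had 21.96 and 18.8. Rin2 had 6 of its 9 regions in an intron run between 36.1 and 47.2 kb, and Rin2 region 8 was the only one of them with a KO peak (WT values of 14.7 and 13.2, with 4.15 in KO G).

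All 8 Sgms1 regions were in introns of the gene. Of these, Sgms1 region 5 differed most between the WT lists, with values of 41.3 and 17.3, and had 7.47 in KO G. Sgms1 region 7 had 19.3 and 5.73 and no KO peak.

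**Figure D2:**
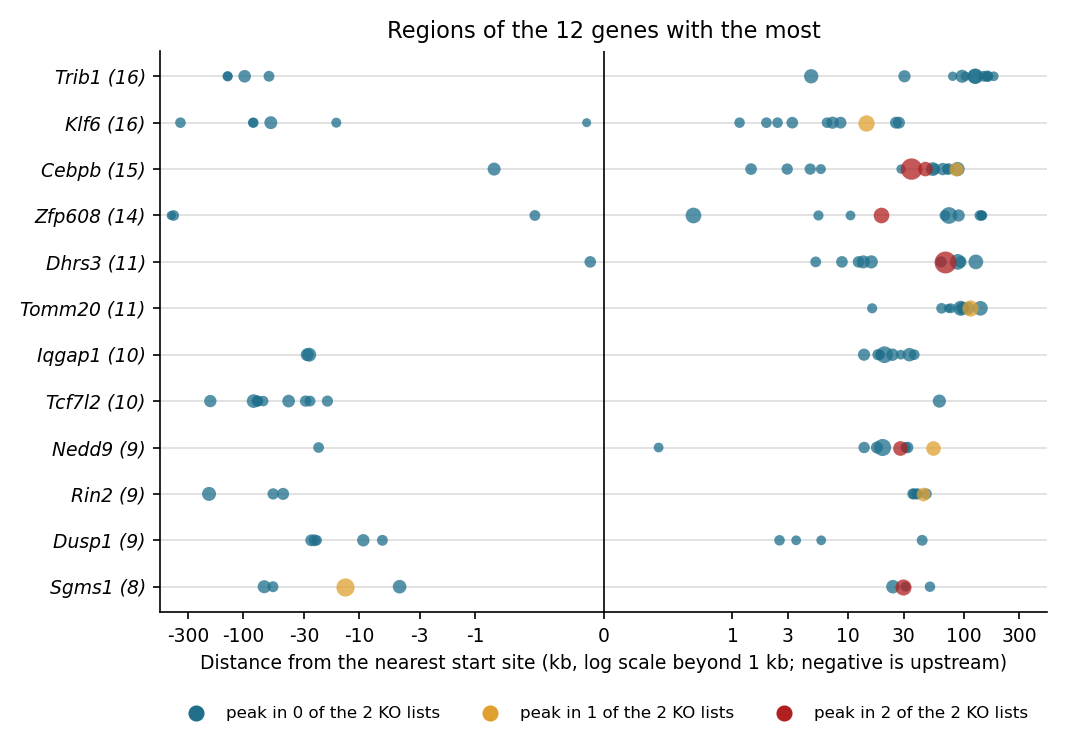
Position of each region of the 12 genes with the most regions, as the distance in kb from the nearest TSS of the gene (log scale beyond 1 kb on each side, negative values upstream). Dot area grows with the mean −log10 q of the WT libraries, and colour gives the number of KO lists with a peak. Trib1, Iqgap1, Tcf7l2 and Dusp1 have no KO peak at any region, and the largest dots, at Cebpb and Dhrs3, have peaks in both KO lists.

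The number of regions was next related to the space available. The territory of a gene is the stretch of genome nearer to its TSSs than to those of any other protein-coding gene. The 88 territories came to 30.6 Mb, or 1.12% of the genome, and held 1.98 regions per 100 kb, against 0.126 over the genome. The median territory was 187.8 kb for the dense genes, 106.9 kb for genes with 2 to 4 regions, 75.4 kb for genes with 1 and 47.0 kb for all protein-coding genes. Among the 88 genes the number of regions and the territory had a Spearman correlation of 0.0517, given as a description over genes that share both libraries. These genes were selected on that same number, which cuts its range. The correlation therefore cannot show whether the number of regions goes with the territory. Across the classes above, the median territory was larger where genes had more regions. Every dense gene lay above the density over the genome, from 0.255 regions per 100 kb at Adgrl2 to 26.7 at Ctsd, which the choice of genes with many regions favours.

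**Figure D3:**
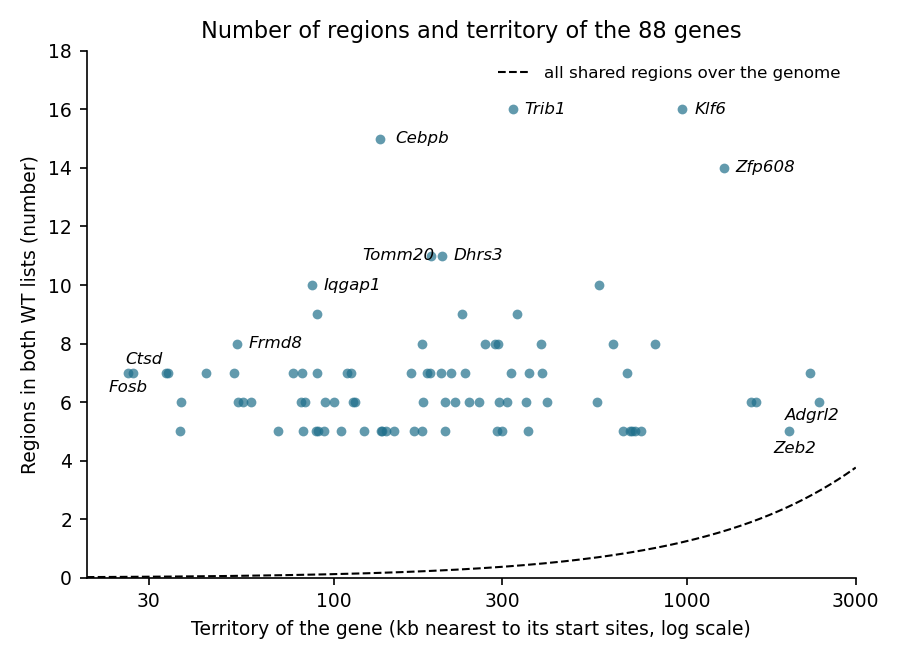
Number of regions (vertical axis) against the territory of each of the 88 genes (horizontal axis, kb, log scale). The dashed curve is the number that 0.126 regions per 100 kb would give, and all genes lie above it, from Ctsd at the left to Adgrl2 at the right.

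By regions per 100 kb of territory, the order was another. Ctsd, the lysosomal protease cathepsin D, came first with 26.7, with all 7 regions in 14.8 kb of intergenic sequence upstream of the gene. Ctsd region 5 was the strongest, with WT values of 15.8 and 10.5, 4.15 in KO G and no peak in KO A. Fosb, an AP-1 subunit gene, had 25.8. Fosb region 5, at 6.43 kb upstream, had WT values of 22.3 and 33.1 and no KO peak, and it was the ninth member by summed rank.

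Ccl6, a chemokine gene, had 20.9 regions per 100 kb, and all 7 of its regions lay within the non-coding gene E230016K23Rik. Ccl6 region 2 had WT values of 20.3 and 38.1 and 5.20 in KO G. Dhrs7b, an oxidoreductase gene, had 20.6, with 7 intronic regions in 10.7 kb, the smallest span of the 88 genes. Its values were uneven between libraries: those of WT A lay between 2.71 and 14.7 and those of WT G between 2.63 and 13.2, and Dhrs7b region 7, the highest of WT A, had 4.64 for WT G.

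Il1a, which encodes the cytokine IL-1α, had 16.2 regions per 100 kb and Trim25, a ubiquitin ligase of antiviral signalling, had 16.1. Mpeg1, a pore-forming protein of phagocytes, had 13.6, Fth1, the heavy chain of ferritin, had 13.4 and Iqgap1 had 11.5. Frmd8, a regulator of membrane protein shedding, had 15.0, but none of its 8 regions lay in the gene or at its promoter: 7 were exonic in the lincRNA Neat1, between 32.7 and 41.6 kb from the Frmd8 TSS, and Frmd8 region 8 lay in the antisense gene Frmd8os at 29.3 kb. Frmd8 region 8 (chr19:5844783-5847227) had WT values of 28.6 and 23.3 and 7.47 in KO G.

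Il1a had its strongest region in an exon of the gene (Il1a region 1, WT values of 15.8 and 14.5) and the other 5 upstream, up to 28.3 kb away. At Fth1, 5 of 7 regions lay upstream, and Fth1 region 4, at 25.9 kb, had WT values of 7.14 and 21.8. Mpeg1 had WT values between 4.31 and 9.92 for A and between 4.64 and 13.2 for G. None of the Il1a, Fth1 or Mpeg1 regions had a KO peak.

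The form of the neighbourhoods can be summarised over all 88 genes. Their regions spanned between 10.7 kb and 1259 kb, with a median of 79.8 kb, and the median gap between neighbouring regions was 6.79 kb. In 9 genes the median gap was under 1 kb and in 13 it was over 20 kb. With regions under 5 kb apart counted as 1, 30 of the 88 genes had 5 or more blocks, 23 had 4, 22 had 3, 10 had 2 and 3 had a single block. For much of the set the count therefore came from runs of adjoining peaks.

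Regions lay on both sides of the TSS in 60 genes, upstream only in 10 and downstream only in 18. They lay inside the gene itself in 282 of 606 cases (46.5%, against 46.0% of all regions). Another protein-coding gene held 31 (5.12%, against 7.54%), and 293 lay in no protein-coding gene (48.35%, against 46.5%). In 21 genes, among them Nedd9, Prkch, Nceh1, Dhrs7b and Cd36, every region lay in the gene, and in 18, among them Ctsd, Tomm20, Frmd8, Bhlhe40 and Cd44, none did. A non-coding gene of the annotation covered 103 of the 606 regions (17%, against 10.7% of all regions). Regions were assigned to protein-coding genes only, so a cluster over a non-coding gene is counted for the nearest protein-coding gene. Examples are the 7 Frmd8 regions in Neat1 and the 7 Ccl6 regions in E230016K23Rik. The rule may therefore favour the higher share of the members, which was not tested.

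Promoters, taken as the stretch between 1 kb before and 100 bp after any annotated TSS, held 51 of the 606 regions (8.42%, 95% exact binomial interval 6.33 to 10.9), introns 52.0% (interval 47.9 to 56.0), intergenic sequence 30.03% (interval 26.4 to 33.9) and exons 5.45% (interval 3.78 to 7.56). At genes with 1 region, promoters held 14.5% (interval 12.6 to 16.6) and exons 3.37%, and over all 3423 regions 10.8% and 3.42%. Of all regions, 50.8% lay in introns and 31.5% in intergenic sequence. At genes with 2 to 4 regions, promoters held 8.93% (interval 7.58 to 10.4), close to the members. The promoter interval of the members did not reach that of the genes with 1 region. A gene with many regions can hold only few of them at its own promoter, where 18 of the 51 lay. The rule may therefore bear on that part of the share, which was not tested. Regions of a gene are not independent of each other, so these intervals cover counting error only. At the promoter of the dense gene itself there were 18 regions, in 18 genes, among them Klf6, Tnfaip3, Fos, Abca1 and Dhrs3.

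The median distance to the TSS was 31.0 kb for members, 16.7 kb for genes with 2 to 4 regions and 10.9 kb for genes with 1, and 88 members lay beyond 100 kb, the farthest of them a Zeb2 region at 1254 kb. This order goes with that of the territories, and the rule assigns more distant regions to genes with more space. The next region lay at a median of 3.64 kb for members and 219 kb at genes with 1 region, which the rule favours too. Members were also wider, with a median of 688 bp against 574 bp for all regions and 515 bp at genes with 1.

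The strength of the regions was compared within each WT list. The median WT values of the members were 8.06 and 8.04, and the same medians over all regions were 8.06 and 8.04. At the median the summits of members held 18 and 12 fragments, against 17 and 11 over all regions. At the upper end, 15.02% of members were among the strongest 10% of regions of WT A (ties included) and 14.03% among those of WT G, against 11.9% and 10.02% of all regions. In the strongest 10% of both lists at once there were 54 members (8.91%), from 40 of the 88 genes, against 6.11% of all regions. Of the 606 members, 298 had the higher value in the A list and 308 in the G list, and the Spearman correlation between the lists was 0.583 across members and 0.522 across all regions, a description over regions of the same 2 libraries.

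The 10 members with the smallest sum of ranks over the WT lists came from 10 different genes. Tgm2 region 6 (chr2:158174535-158176075) came first. It lies 28.9 kb upstream of the gene of transglutaminase 2, a known retinoid target, and had WT values of 41.3 and 45.2 and 6.31 in KO G, with no peak in KO A. Its WT summits held 47 and 35 fragments. Dhrs3 region 8 and Cebpb region 7 followed.

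Pim1 region 3 (chr17:29434678-29436167) was the fourth and the strongest with no KO peak. It lies 55.3 kb upstream of Pim1, a kinase gene induced by cytokines, within annotated non-coding genes and at a promoter of theirs, and had WT values of 37.0 and 38.1. Trim25 region 6 (chr11:89023868-89025012), the fifth, had WT values of 41.3 and 34.7, with 18.9 in KO A and 15.1 in KO G, while the other 6 regions of Trim25 had WT A values between 3.42 and 8.48, WT G values between 4.64 and 10.5 and no KO peak. A single region thus stood above the others at this gene in both WT lists.

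The remaining ones were Tex14 region 1 (WT values of 25.9 and 33.0, with 5.04 in KO A), Trps1 region 3 (27.2 and 25.3, with 4.15 in KO G), Frmd8 region 8, Fosb region 5 and Cd36 region 1. Tex14 region 1 lay at the annotated small nuclear RNA gene Rnu1a1 inside Tex14. Cd36 encodes a fatty acid and lipoprotein scavenger receptor, and Cd36 region 1, 0.752 kb from a TSS of the gene, had WT values of 23.3 and 26.4 and 4.15 in KO G, with no peak in KO A. In each of the 10 regions except Pim1 region 3 and Fosb region 5, at least 1 KO list had a peak, and every KO value was below both WT values.

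**Figure D4:**
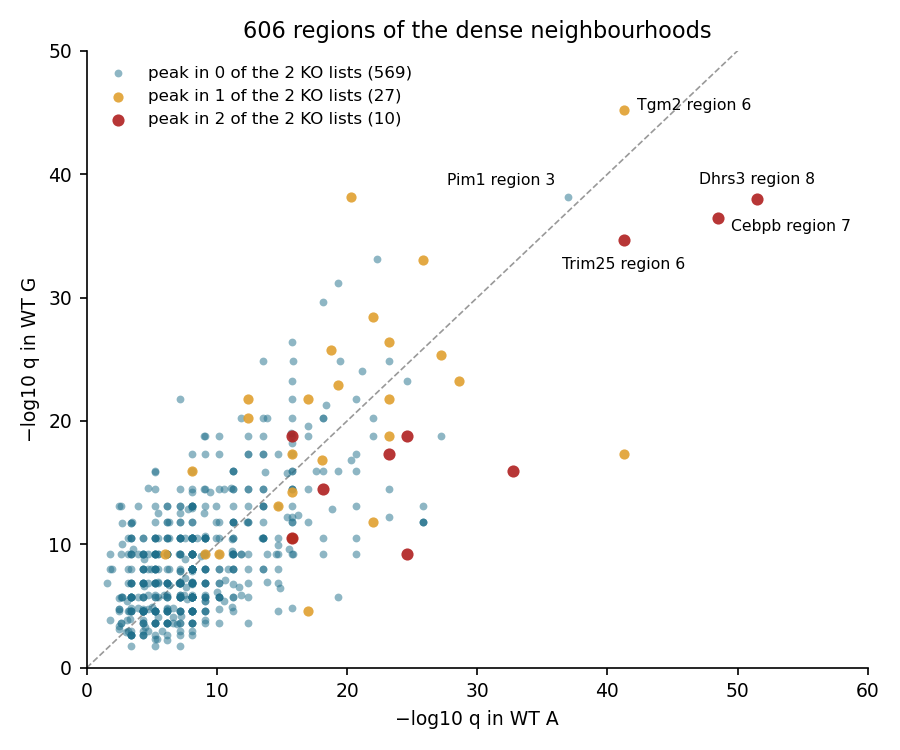
The −log10 q of each of the 606 members for WT A (horizontal axis) and for WT G (vertical axis), with colour for the number of KO lists with a peak and the dashed line at equal values. The 37 regions with a KO peak lie mostly among the stronger ones, with Pim1 region 3 as a strong region without any.

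Peaks in the KO were then compared between dense neighbourhoods and other regions. Of the 606 members, 37 (6.11%, interval 4.34 to 8.32) had a peak in KO A or KO G, against 5.87% of all 3423 regions (interval 5.11 to 6.71), 5.43% at genes with 2 to 4 regions and 6.34% at genes with 1. KO A had a peak at 15 members (2.48%, interval 1.39 to 4.05) and KO G at 32 (5.28%, interval 3.64 to 7.37), against 2.16% and 5.35% of all regions, and both had one at 10 (1.65% against 1.64%). The share of members with a KO peak was therefore close to the background in each KO list, and the difference was within counting error.

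**Figure D5:**
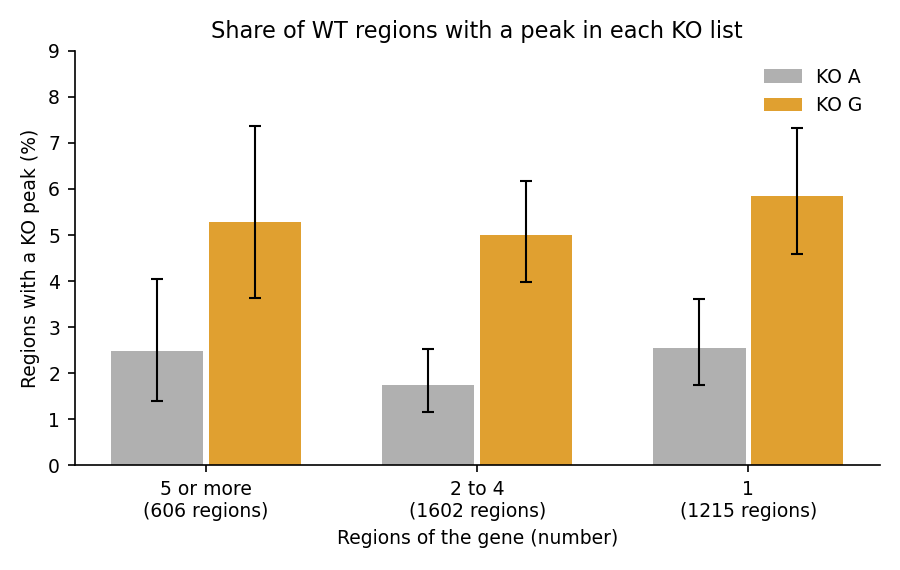
Share of regions with a peak in KO A or in KO G (vertical axis, %) for regions of genes with 5 or more, 2 to 4 and 1 region. Error bars are 95% exact binomial intervals, which overlap between the classes for each library, while KO G lies above KO A in every class.

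Of the 83 KO A peaks, 16 (19.3%, interval 11.4 to 29.4) were nearest to a dense gene, as were 35 of 208 for KO G (16.8%, interval 12.01 to 22.6). All 51 overlapped a member. Over both lists this was 17.5% of 291 peaks (interval 13.3 to 22.4), beside the 17.7% of the shared WT regions that the dense genes held. No dense gene had a KO peak away from its WT regions. Over all 3423 regions, 74 had a KO A peak and 183 a KO G peak, where the lists held 83 and 208 peaks. KO peaks away from shared WT regions were thus few in general, and the overlap was not shown to be particular to dense genes.

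The KO peaks lay at the stronger members. Members with a KO peak had median WT values of 19.3 and 18.8, and those without had 8.06 and 8.04. Over all regions the same medians were 18.8 and 15.9 with a KO peak and 7.14 and 6.94 without. In 57 of the 88 genes no region had a KO peak, in 31 at least 1 had, and in 21 of these 31 the gene's strongest region by summed WT rank was one of them. These counts of genes have no background beside them, since genes outside the set have fewer regions. By region, the share with a KO peak was 6.11% for members and 5.87% over all regions. Only Cebpb (3 regions), Eepd1, Lpp, Nedd9 and Sgms1 (2 each) had KO peaks at more than 1 region.

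The 10 members with a peak in both KO lists were App region 1, Cebpb regions 7 and 8, Dhrs3 region 8, Dusp6 region 2, Map3k8 region 1, Nedd9 region 3, Sgms1 region 2, Trim25 region 6 and Zfp608 region 8. App region 1, in an intron of the amyloid precursor gene, had WT values of 32.8 and 15.9, with 7.30 in KO A and 5.20 in KO G. Dusp6 region 2, 7.26 kb from the TSS of a phosphatase gene that acts on ERK, had 15.8 and 10.5, with 7.30 in KO A and 4.15 in KO G. In both, the WT values were higher than either KO value.

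Sgms1 region 2 had WT values of 24.6 and 18.8, with 7.30 in KO A and 5.20 in KO G. Zfp608 region 8 had 23.3 and 17.3, with 5.04 and 4.15 in the KO lists, and Map3k8 region 1, 86.7 kb from a kinase gene of inflammatory signalling, had 18.2 and 14.5, with 5.04 and 6.31. In every one of the 10 regions the higher KO value was under the lower WT value. Among the 37 members with any KO peak, 1 had a KO value above a WT value: Zfp36l2 region 1, 98.1 kb from its TSS, with WT values of 16.97 and 4.64 and 7.47 in KO G. A −log10 q depends on the depth of its library, so levels were not compared as fold changes between libraries. Similar fold enrichment (pileup over local background) can carry different values in 2 lists. At Abca1 region 6 it was 6.20 in WT A and 6.09 in KO G, with values of 6.05 and 4.09. A KO value under a WT value is therefore not by itself a lower enrichment.

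Genes of the lists chosen for AM biology were then located. Of all 21951 protein-coding genes, 8.81% had a region in both WT lists and 0.401% were dense. Of 24 myeloid and macrophage transcription factors, 18 had a region and 8 were dense (33.3%): Klf6 with 16 regions, Cebpb with 15, Bhlhe40 and Runx1 with 8, Fos with 7, and Atf3, Nfil3 and Zeb2 with 5. Bhlhe40, a basic helix-loop-helix factor known from AMs, had 7 of its 8 regions upstream, 4 of them inside Itpr1 and up to 194.2 kb away, and none had a KO peak. Runx1, a factor of blood cell development, had regions over 600.2 kb, from 385.9 kb upstream of a TSS, and Runx1 region 3 had WT values of 21.96 and 11.8 and 2.51 in KO G. Spi1, Cebpd, Bhlhe41, Irf8 and Egr2 were among those with no region in both WT lists assigned to them, where a region close by can be nearest to the TSS of a neighbour, and Pparg, the partner of RXR in AMs, had 3.

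Fos, an AP-1 subunit gene, and Zeb2, a zinc finger repressor gene, were arranged at opposite scales. The 7 Fos regions spanned 33.5 kb, with 1 at 0.161 kb from the TSS, and the 5 Zeb2 regions spanned 1259 kb. Atf3, a stress-induced factor gene, had all 5 regions upstream, up to 48.8 kb. Neither Fos, Atf3, Nfil3 nor Zeb2 had a KO peak at a region.

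Of 22 known targets of the partner receptors of RXR, 14 had a region and 4 were dense: Dhrs3 (11), Abca1 (7), Cd36 (6) and Tgm2 (6). Abca1, the exporter of cholesterol to lipoproteins and a target of LXR, had regions at 0.013 kb upstream and 0.650 kb downstream of TSSs, with WT values of 8.06 and 4.64 at the former and of 6.16 and 6.88 at the latter, which held a DR1 match. Only Abca1 region 6, at 58.4 kb upstream, had a KO peak (WT values of 6.05 and 9.21, with 4.09 in KO G). Rara, which encodes a partner of RXR and is not on the list, was dense too, with 6 regions in 20.01 kb, no KO peak, and a DR1 match in Rara region 3.

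Of 25 signalling feedback regulators, 11 had a region and 6 were dense: Trib1, Dusp1, Dusp6, Pim1 (7), Tnfaip3 (6), which ends NF-κB signalling, and Zfp36l2 (6), which promotes mRNA decay. Dusp1 had 9 regions over 107 kb, 5 of them in introns, with WT A values between 3.43 and 14.7, WT G values between 5.73 and 10.5 and no KO peak. Tnfaip3 had a region at its promoter (WT values of 5.22 and 3.61), and its strongest, Tnfaip3 region 5 at 46.9 kb upstream, had 12.4 and 14.5. None of the Tnfaip3 or Pim1 regions had a KO peak.

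Of 20 surface and function genes of AMs, 16 had a region and none had 5, where 4.55% of all genes with a region were dense, so that a count of 0 among 16 is near the background: Lpl, the lipoprotein lipase, and Atp6v0d2, a subunit of the lysosomal proton pump, had 4 each, Cd69, Cidec and Olr1 had 3, Mrc1 and Fabp1 had 2, and Siglecf, Itgax, Marco, Car4, Chil3, Ctsk, Tlr2, Krt79 and Cdh1 had 1. Among 17 receptors and mediators of niche signals, 5 had a region and 2 were dense, the TGFβ receptor gene Tgfbr2 and its antagonist Ski with 5 each. Notch2 had 4, Skil 2 and Rbpj 1. None was assigned to Csf2ra, Csf2rb, Csf2rb2, Csf1r, Tgfbr1, Notch1, Hes1, Stat5a, Stat5b, Smad3, Smad4 or Smad7. Here too a region close by can be nearest to the TSS of a neighbour. Of 10 genes of monocytes and other macrophages 1 had a region (Cx3cr1, with 1), and of 12 genes of lymphocytes, neutrophils and lung epithelium 2 had (Ms4a1 and Scgb1a1, 1 each), and none was dense. The last counts, 10% and 16.7%, are of few genes and not below the 8.81% over all protein-coding genes. The lists were chosen with results of these data known, so their counts are a description.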

How the data were processed

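RXRα HT-ChIPmentation libraries of 2 WT and 2 KO samples were used; groups and letters came from the labels. Adapters were removed by the authors with Cutadapt 1.7.1. Bowtie2 gave the mm10 alignments, which were filtered for properly paired, non-duplicated reads with samtools 0.1.18, and MACS3 3.0.0a5 called peaks for each library separately at a q threshold of 0.05, with the input as background. Of the deposited columns, fold enrichment gives pileup over local background as a ratio (pseudocount 1), the −log10 p and −log10 q refer to the summit, the score is 10 times the −log10 q and a further column gives the summit position. The input's own file was not used.

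Lists were merged and assigned with pandas 2.3.3, numpy 2.4.6 and scipy 1.17.1 under Python 3.11.15 (sequences with pysam 0.24.0, figures with matplotlib 3.10.9), with the TSSs of all transcripts of protein-coding genes in GENCODE M21 (basic set), identified by gene identifier. The deposited −log10 q of a region is that of its strongest peak in a list. Fragments at summits were derived as the whole number whose Poisson tail gave the deposited −log10 p at that fold enrichment. Motifs were scanned as consensus letters. No test was made between genotypes, since the lists hold peaks without read counts and the members were selected on them; shares carry 95% exact (Clopper-Pearson) intervals, which cover counting error only. The named genes were the 12 with the most regions, the 10 with the most per 100 kb, the 10 members with the smallest rank sums, members with a peak in both KO lists, genes with the most DR1 regions (2 stood out, the rest tied at 1), dense genes of the lists and 3 genes on each side of the threshold; further genes were named after seeing their values. The members and lists were chosen with earlier results of these data known. Merging, assignment, fragments and motif scan were tested on simulated data. Alternatives are given in the closing section.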

Additional observations from a re-analysis of the deposited data

How the results depend on the processing

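The counts depended on how peaks were joined and assigned. Where WT peaks had to share at least 50% of both lengths (median width 228 bp in WT A and 323 bp in WT G), 1548 regions remained, with 7 dense genes and 44 members. Of these members, 9.09% had a KO peak (interval 2.53 to 21.7) and 2.27% were at promoters (interval 0.0575 to 12). The neighbourhoods held 3.44% of KO peaks, beside 2.84% of the regions. With every annotated gene in place of protein-coding genes there were 47 dense genes (31 of the 88) and 275 members, 4% at promoters, with 8.25% of KO peaks and 8.03% of regions. With regions less than 5 kb apart counted as 1 there were 30 genes (all among the 88) and 185 blocks. Of these blocks 10.3% had a KO peak (interval 6.3 to 15.6), and 9.62% of KO peaks lay in these neighbourhoods. With a threshold of 4 regions there were 177 genes and 962 regions, with 26.1% of KO peaks and 28.1% of regions. Shares with a KO peak or at promoters over all regions joined or assigned in these ways are not given here. The members' shares under these settings are therefore not set against a background.

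Using a single WT list (without replicate A or without replicate G of WT), dense genes numbered 193 to 533 and members 1394 to 4588. The share with a KO peak was then 2.29% to 4.38%, with DR1 3.25% to 5.74%, at promoters 8.32% to 8.94%, and 28.5% to 48.1% of KO peaks lay in the neighbourhoods, beside 29.3% to 47.0% of the WT peaks used. Leaving out a KO replicate gave 2.48% to 5.28% of members with a KO peak and 16.8% to 19.3% of KO peaks. With at most 1 mismatch, 0.66% of members held DR1, and in the whole region 23.9% did. With 3 kb on each side of a TSS, 25.4% were promoter regions. Shares over all regions under these DR1 and promoter settings are not given here, nor are those over all peaks of a single WT list. The members' shares under them cannot be compared with the shares over all regions given above. The other alternatives moved no count by over 1.5 times and no share out of its interval. They included the comprehensive annotation (97 dense genes) and genes joined by symbol (89), both added after the data were seen. With WT G held to as many peaks as WT A there were 62 dense genes, all among the 88. With only the 5′ end of each gene as its TSS there were 90, of which 75 were among the 88. No paired analysis was possible because the results are counts and shares of peaks with no test to block, and the sources used here do not say whether the letters A and G pair WT with KO libraries. With 2 libraries for each genotype and summits of few fragments, a missing peak cannot be told apart from a weak one.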

Other observations

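Peaks of a single WT list also lay in these neighbourhoods. Of the 6239 WT G peaks with no WT A counterpart, 765 (12.3%, 95% exact binomial interval 11.5 to 13.1) were nearest to 1 of the 88 genes, at a median of 8 for each gene, and Dhrs7b was the gene with none. Of the 799 WT A peaks without a WT G counterpart, 52 were (6.51%, interval 4.90 to 8.45), and 48 of the genes had none. The highest numbers of such WT G peaks were at Zfp608 and Cd44, with 23 each, followed by Nceh1 with 20 and Cd9 with 19. Both shares lay below the 17.7% of shared regions that the same genes held, a share that their selection fixed.

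The 88 genes lay on every chromosome with a shared region except X, which had 21 shared regions. The most were on chromosome 2, with 11 genes and 73 of its 272 shared regions, and on chromosome 19, with 8 genes and 56 of 159. Chromosomes 10 and 11 had 7 genes each, with 43 of 211 and 44 of 245 regions, and chromosome 13 had 6 genes and 48 of 171. In all, the dense genes held 17.7% of shared regions. Whether the chromosomes differ was not tested.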
